A study of Mus musculus with 8 samples.

Results

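The genes that copy DNA in S phase and that make its building blocks were followed in cultured mouse tendon stem cells (TSCs). The set was a list of 45 gene symbols, and a gene was a member when its symbol stood in the deposited expression table. All 45 were found among the 19301 genes of the table. The list was put together by the function of the genes, with earlier results of these data known.

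The cells were primary TSCs of C57BL/6J mice, taken from the patellar tendon with type I collagenase and grown without a sort for a surface marker being described. The age of the donor mice for these cultures, and whether each replicate came from its own mouse, are not given in the sources used here. One group of 4 libraries came from cells kept in low glucose medium (LG, 5.5 mM glucose with the DMSO vehicle). The other 4 came from cells kept in high fat, high glucose medium (HFHG, a higher glucose concentration with 300 µM palmitic acid), and both groups were cultured for 4 days. Glucose and palmitic acid were changed together, so their effects cannot be told apart. All members were measured as FPKM, fragments scaled for gene length and for library depth, which allows levels of different genes to be compared per length.

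Before a cell enters S phase, the origin recognition complex with CDC6 and CDT1 loads the ring of MCM2 to MCM7 onto DNA, a step named licensing. Cyclin E with its kinase and the E2F factors then start the phase, CDC45 and the GINS complex turn the MCM ring into an active helicase, and primase, polymerases and the PCNA clamp copy the strands. Ribonucleotide reductase and thymidylate enzymes supply deoxynucleotides, and the histone chaperone CAF-1 packs the new DNA. E2F factors and the CCAAT-binding factor NF-Y are known to act on the promoters of many of these genes.

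The read totals behind the FPKM values were 34308108 to 37362725 for a library, recovered from these values as whole reads. Of each total, 99.82 to 99.85% lay on the genes of the expression table. The members took between 14 and 2254 reads in a library, and 33 of the 41 tested members had at least 100 reads in every library. Replicates of a group differed by 3.41 to 4.60 times the variance of read counting, except that pairs with LG replicate 4 differed by 7.56 to 10.8 times. Tendon cell markers summed to 3776 to 3819 FPKM in HFHG and to 2698 to 2739 FPKM in LG. The sum came mainly from Bgn, Dcn and Col1a1. Their means were 1671, 605 and 529 FPKM in HFHG and 1390, 609 and 206 FPKM in LG. Of the 11 markers, 8 were called higher in HFHG (72.7%, against 34.0% of all tested genes) and 2 lower (18.2%, against 30.8%). Of the tendon genes among them, Scx was at 0.983 to 2.88 FPKM and Tnmd at 0.220 to 1.19 FPKM over all libraries, and both were called higher in HFHG. Mkx, a tendon transcription factor, was at 6.05 to 9.30 FPKM and was called lower (log2 fold change -0.35, adjusted p = 7.49e-04). Markers of macrophages were also present, mainly the lysozyme gene Lyz2. The 9 markers of that list summed to 1711 to 1762 FPKM in HFHG and to 1875 to 1955 FPKM in LG. Of 8 tested, 7 were called lower in HFHG (87.5%, against 30.8% of all tested genes) and none higher (against 34.0%). Cd163 stayed at or below 0.0439 FPKM. In bulk RNA, fewer cells of a type and less RNA per cell cannot be told apart. The part of macrophage RNA in the differences below was not tested. Of the other cell types, Fabp4 was the adipocyte marker above the filter, at 66.3 to 72.8 FPKM in HFHG and 23.3 to 29.3 FPKM in LG, while Adipoq, Plin1 and Lep were near 0. Markers of endothelium summed to at most 2.15 FPKM, of muscle to at most 4.36 FPKM and of Schwann cells to at most 5.04 FPKM, and the endothelial markers Pecam1, Cdh5 and Kdr and the muscle marker Myod1 were at or below 0.197 FPKM. Of the 6 surface markers of stem and progenitor cells, 4 were called higher (66.7%, against 34.0% of all tested genes) and 2 lower (33.3%, against 30.8%).

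To show what stands in front of these genes, the bases before the transcription start of RefSeq (GRCm38.p6) are given for 4 subunits of the MCM ring, for both subunits of ribonucleotide reductase and for cyclin E1. Mcm2, Mcm3 and Mcm5 fell in HFHG, Mcm6 was not called, and Rrm1, Rrm2 and Ccne1 rose. Capitals mark an E2F string (TTTCCCGC, TTTCGCGC, TTTGCCGC or TTTGGCGC) or a CCAAT box, each read on both strands. Up to 160 bases are shown, in the direction of the gene, and bases that GENCODE already counts to the gene are left out.
Mcm2, chr6:88898781-88898940, minus strand: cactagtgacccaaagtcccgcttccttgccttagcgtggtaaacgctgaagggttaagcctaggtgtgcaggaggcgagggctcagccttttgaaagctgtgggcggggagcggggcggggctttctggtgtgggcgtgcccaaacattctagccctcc
Mcm3, chr1:20820313-20820472, minus strand: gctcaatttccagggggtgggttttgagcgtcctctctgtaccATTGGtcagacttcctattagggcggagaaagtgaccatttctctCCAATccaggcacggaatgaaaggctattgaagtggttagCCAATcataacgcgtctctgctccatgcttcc
Mcm5, chr8:75109349-75109508, plus strand: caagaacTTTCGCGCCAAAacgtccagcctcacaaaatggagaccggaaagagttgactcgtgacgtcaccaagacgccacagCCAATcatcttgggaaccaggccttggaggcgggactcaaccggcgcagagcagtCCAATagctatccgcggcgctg
Mcm6, chr1:128359706-128359865, minus strand: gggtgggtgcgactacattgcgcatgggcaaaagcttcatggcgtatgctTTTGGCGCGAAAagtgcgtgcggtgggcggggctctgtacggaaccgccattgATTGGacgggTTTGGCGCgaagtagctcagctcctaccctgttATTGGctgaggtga
Rrm1, chr7:102441535-102441694, plus strand: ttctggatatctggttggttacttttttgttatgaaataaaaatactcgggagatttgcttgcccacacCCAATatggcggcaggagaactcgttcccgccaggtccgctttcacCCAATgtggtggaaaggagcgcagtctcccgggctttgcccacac
Rrm2, chr12:24708094-24708240, plus strand: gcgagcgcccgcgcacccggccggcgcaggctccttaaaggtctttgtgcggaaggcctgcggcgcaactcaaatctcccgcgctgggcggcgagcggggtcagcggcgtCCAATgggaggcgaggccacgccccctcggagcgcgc
Ccne1, chr7:38107535-38107650, minus strand: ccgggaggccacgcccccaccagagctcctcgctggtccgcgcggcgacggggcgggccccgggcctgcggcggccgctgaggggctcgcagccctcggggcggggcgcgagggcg

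In Mcm5, both E2F strings overlap in 1 run that begins 153 bases before the start, and Mcm6 holds such an overlapping pair from 110 bases and another string from 47 bases before the start. Mcm3 carried CCAAT boxes 117, 72 and 32 bases before the start. Rrm1 carried them 91 and 45 bases before the start, and Rrm2 carried 1 box 50 bases before it. Neither string is seen in the stretches of Mcm2 and Ccne1, but Mcm2 carried a CCAAT box 175 bases before the start, outside the bases shown. Over the 250 bases before the start, an E2F string was found for 9 of the 37 members with a RefSeq entry (24.3%), compared with 362 of 9376 tested genes (3.86%) and 583 of 27025 genes of the promoter table (2.16%). A CCAAT box was found for 22 of the 37 members (59.5%), compared with 40.6% of tested genes and 37.5% of the promoter table. By direction, an E2F string stood before 3 of the 16 members that fell (Mcm5, Orc1 and Uhrf1), before 0 of the 5 that rose, and before 6 of the 16 others. In licensing genes it stood before 5 of 9, named Mcm5, Mcm6, Mcm7, Orc1 and Cdc6. These matches are a description of letters, nothing was measured about a factor bound there, and no match says only that these letters are not in the window.

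The first comparison asked which members differed between HFHG and LG. More members fell in HFHG than rose. The licensing genes Mcm2 and Cdt1 showed the largest decreases among members expressed above the filter in both groups, while both subunits of ribonucleotide reductase, the primase subunit Prim2, the histone chaperone subunit Chaf1a, the cyclin gene Ccne1 and E2f1 were higher. Of the 45 members, 41 passed the filter of 0.5 FPKM in at least 4 libraries, and Cdc6, Mcm10, Gins1 and Pole did not. In the limma fit, 17 of the 41 fell at an adjusted p below 0.05 (41.5%, against 30.8% of all 11710 tested genes), 6 rose (14.6%, against 34.0% of all tested genes) and 18 were not called. Orc1 passed the filter only through LG, where it was high, and without it 16 of 40 fell and 6 rose. With FPKM rescaled to the same sum in every library, 14 fell and 10 rose, which put 58.3% of the calls in the lower direction in place of 73.9%. That rescaling also moved the median log2 fold change over all tested genes, from 0.017 to 0.075. Without LG replicate 4, the library that stood apart, 13 fell and 9 rose (59.1% of the calls lower). Shares of all tested genes called in these settings are not given here. The median log2 fold change of the tested members was -0.15, compared with 0.02 over all tested genes, and single members ranged from -0.94 to 0.61. None of the members passed the threshold of the study, a change over 2-fold with an unadjusted p below 0.05. Of the tested genes, 5.33% passed it, and 3 members passed with quantile normalization. An unadjusted p below 0.05 in the limma fit was reached by 27 of the 41 tested members and by 7940 of all 11710 tested genes. In 14 of the 41 tested members all HFHG values lay below all LG values (28.1% of tested genes did so), and in 7 all lay above (31.1% of tested genes). Orc1 is among the 14, and it had to lie apart because it passed the filter only through LG. Added over the 45 members, the level was 215 ± 4.72 FPKM in HFHG and 226 ± 5.36 FPKM in LG (SD, n = 4), with the highest HFHG library at 220.3 and the lowest LG library at 220.1 FPKM. The sum over all 11710 tested genes was lower in HFHG as well, at 405203 against 422427 FPKM in LG (means of 4 libraries).

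**Figure D1:**
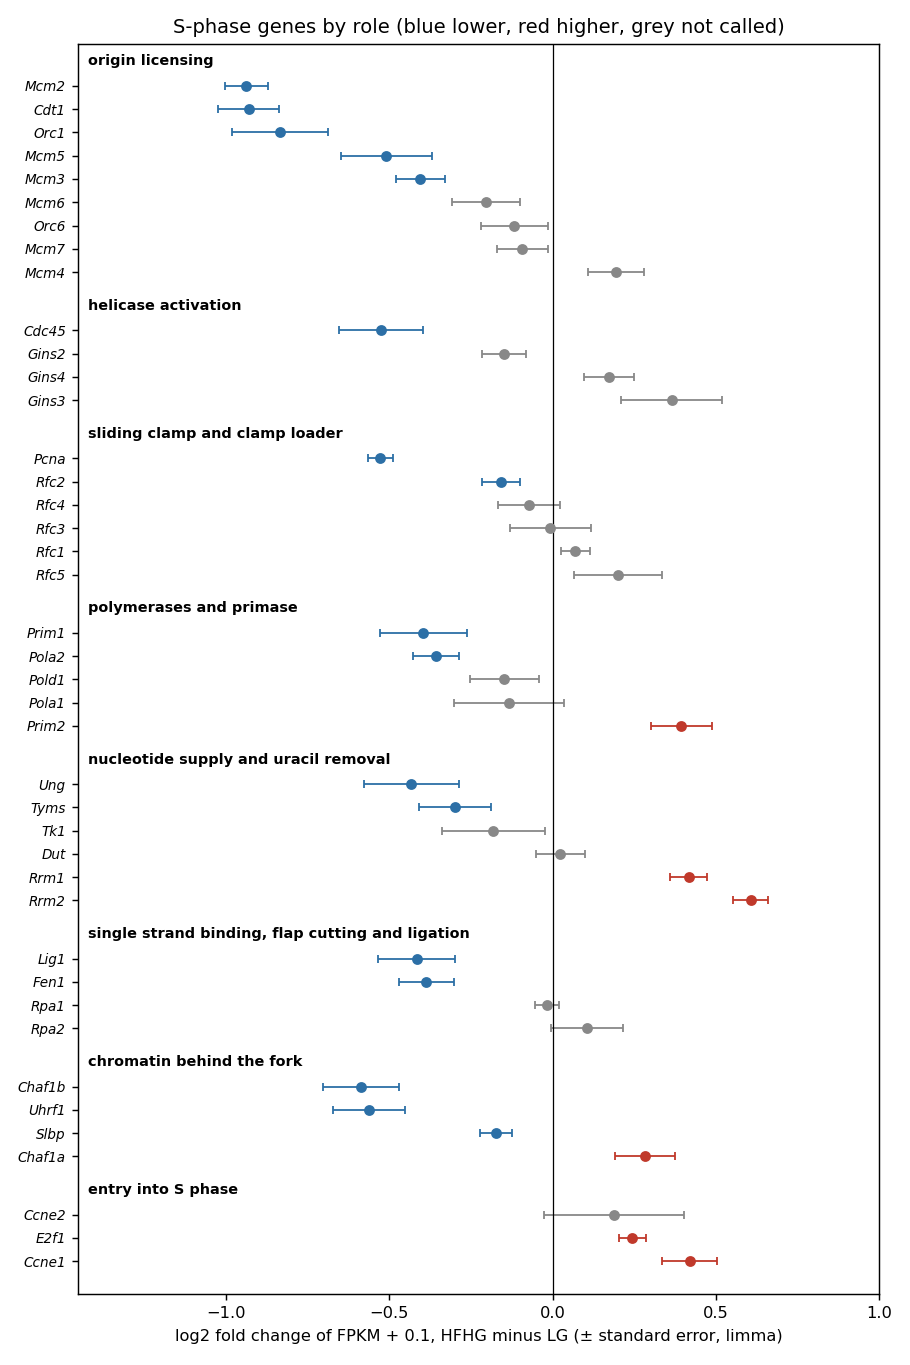
Log2 fold change (HFHG minus LG, of FPKM + 0.1) of the 41 tested members on the horizontal axis, grouped by role, with the standard error of the limma fit as bars. Blue points are the 17 called lower, red points the 6 called higher and grey points the 18 not called, and the lowest values stand in origin licensing, down to -0.94 for Mcm2.

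Members spanned a wide range of levels: 8 had a mean below 1 FPKM and 7 a mean above 10 FPKM, with Pcna as the highest. The coefficient of variation between replicates had a median of 8.34% in HFHG and 9.03% in LG over the tested members, and ranged from 1.09% for E2f1 to 35.1% for Ccne2, both in LG.

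Mcm2 and Cdt1 of the licensing genes were close to 2-fold lower in HFHG. Of 9 tested, 5 fell (Mcm2, Cdt1, Orc1, Mcm5 and Mcm3, 55.6% against 30.8% of all tested genes) and none rose (against 34.0%), with a median log2 fold change of -0.40. Without Orc1, 4 of 8 fell and the median was -0.30. Mcm2 (chr6:88883474-88898780 in mm10, minus strand), a subunit of the helicase ring, measured 3.24, 3.23, 3.20 and 3.12 FPKM in HFHG and 5.98, 6.53, 5.63 and 6.74 FPKM in LG. The HFHG libraries hardly differed among themselves and all lay far below the LG libraries. This was 3.20 ± 0.0551 against 6.22 ± 0.509 FPKM (SD, n = 4), 1.95-fold higher in LG, with a log2 fold change of -0.94 ± 0.07 (SE) and an adjusted p of 6.71e-08.

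Cdt1, the loading factor that brings the ring to the origin, measured 2.39, 2.81, 2.14 and 2.11 FPKM in HFHG and 4.42, 4.70, 4.19 and 5.0 FPKM in LG. The groups were well apart, and the log2 fold change was -0.93 ± 0.09 (adjusted p = 2.22e-06). Orc1, the largest subunit of the origin recognition complex, was a low-abundance gene with 0.284, 0.441, 0.396 and 0.445 FPKM in HFHG and 0.812, 0.804, 0.721 and 0.736 FPKM in LG, or 32 to 88 reads in a library. It passed the filter only through LG, so it had to differ to be tested, and leaving out any LG library put it below the filter. In the fit with no filter on low values, the log2 fold change was -0.83 with an adjusted p of 9.90e-04, and 10.8% of its exon bases lie opposite to Gm12743. Orc6, another subunit of that complex, measured 3.64 to 5.08 FPKM in HFHG and 4.28 to 5.18 FPKM in LG and was not called (log2 fold change -0.12, adjusted p = 0.33). Cdc6, which helps ORC to load the ring, was below the filter, with 0.240 to 0.394 FPKM in HFHG and 0.205 to 0.397 FPKM in LG (exact two-sided permutation p = 0.486, where 0.0286 is the smallest value that 4 against 4 libraries allow).

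The 6 subunits of the MCM ring did not move by the same amount. Beside Mcm2, Mcm3 fell from 3.65 ± 0.276 to 2.73 ± 0.178 FPKM (SD, n = 4; log2 fold change -0.40, adjusted p = 4.55e-04) without overlap. Mcm5 measured 1.31, 1.24, 0.959 and 0.961 FPKM in HFHG and 1.26, 1.72, 1.68 and 1.86 FPKM in LG. It was called lower (log2 fold change -0.51, adjusted p = 0.00613), although LG replicate 1 lay within the range of HFHG. Mcm4 was the subunit with a positive value, at 4.17, 3.49, 3.80 and 3.39 FPKM in HFHG and 3.34, 3.17, 2.88 and 3.54 FPKM in LG. It was not called (log2 fold change 0.19, adjusted p = 0.0599), but was called higher without HFHG replicate 4 (adjusted p = 0.0390) or LG replicate 4 (adjusted p = 0.0310) and with FPKM rescaled to the same sum (adjusted p = 0.0157). Mcm6 was not called either (log2 fold change -0.20, adjusted p = 0.102), and was called lower without LG replicate 3 (adjusted p = 0.0462) and with quantile normalization (adjusted p = 0.0101). Mcm7, the most abundant licensing gene, measured 4.90, 5.11, 5.94 and 4.54 FPKM in HFHG and 5.65, 5.42, 5.67 and 5.04 FPKM in LG. Its groups overlapped (log2 fold change -0.09, adjusted p = 0.320), and the miRNA genes Mir25 and Mir93 lie within it on the same strand. Summed over the 6 subunits, the level was 16.3 to 18.3 FPKM in HFHG and 20.8 to 22.8 FPKM in LG.

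**Figure D2:**
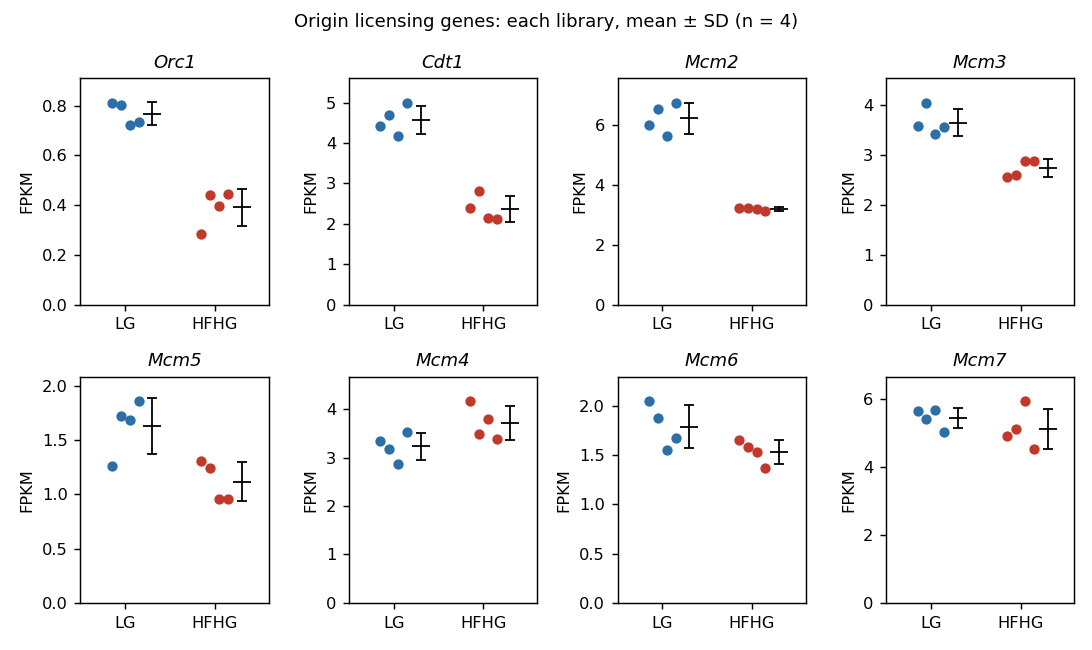
FPKM of 8 licensing genes in each library (vertical axes start at 0), with LG in blue, HFHG in red and the mean ± SD of 4 libraries in black. Orc1, Cdt1, Mcm2 and Mcm3 separate the groups, Mcm5 overlaps by 1 LG library at 1.26 FPKM, and Mcm4, Mcm6 and Mcm7 overlap.

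Helicase activation was mixed. Of 4 tested genes, Cdc45 fell (25% against 30.8% of all tested genes), none rose and the 3 tested GINS genes were not called, and the median log2 fold change was 0.01. Cdc45, which joins the MCM ring to form the moving helicase, measured 0.783, 1.16, 1.04 and 1.08 FPKM in HFHG and 1.35, 1.64, 1.37 and 1.64 FPKM in LG. All HFHG values were lower (log2 fold change -0.53 ± 0.13, adjusted p = 0.00299). Exons of Ufd1 lie opposite to 5.96% of the exon bases of Cdc45, and Ufd1 had a mean of 28.8 FPKM in HFHG and 33.9 FPKM in LG. The GINS complex joins at the same step as CDC45. Gins4, its most abundant gene, measured 16.3, 15.0, 16.8 and 12.9 FPKM in HFHG and 12.8, 12.7, 13.6 and 14.9 FPKM in LG. Gins2 measured 5.80, 6.21, 6.37 and 6.41 FPKM in HFHG and 6.91, 6.79, 6.17 and 7.69 FPKM in LG. Both overlapped between the groups and pointed in opposite directions, with log2 fold changes of 0.17 for Gins4 (adjusted p = 0.0675) and -0.15 for Gins2 (adjusted p = 0.0693). Gins3 had 0.37 (adjusted p = 0.0543). The calls of these genes turned with single libraries and with the scaling or the filter. Gins4 (adjusted p = 0.00449 and 0.0289) and Gins3 (adjusted p = 0.00814 and 0.0192) were called higher without HFHG replicate 4 or without LG replicate 4, and Gins2 was called lower without LG replicate 3 (adjusted p = 0.0181). With all libraries, Gins4 and Gins3 were called higher with FPKM rescaled to the same sum (adjusted p = 0.0113 and 0.0229), Gins3 also with a filter of 1 FPKM (adjusted p = 0.0499), and Gins2 was called lower with median-ratio scaling and quantile normalization (adjusted p = 0.0300 and 0.0215). Exons of Gse1 on the opposite strand cover 67.3% of the exon bases of Gins2. Gins1 was below the filter and scattered from 0.234 to 0.648 FPKM in HFHG around the 0.368 to 0.491 FPKM of LG (exact permutation p = 0.543), and Mcm10, a helicase cofactor, had 0.195 to 0.267 FPKM in HFHG and 0.245 to 0.396 FPKM in LG (exact permutation p = 0.0571).

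Polymerase alpha and primase, which lay down the first stretch of each new strand, changed unevenly. Of 5 tested genes in the role of polymerases and primase, Pola2 and Prim1 fell (40% against 30.8% of all tested genes), Prim2 rose (20% against 34.0%), and Pola1 and Pold1 were not called. Prim1, the catalytic primase subunit, measured 1.33, 1.36, 0.870 and 1.37 FPKM in HFHG and 1.69, 1.56, 1.71 and 1.56 FPKM in LG. HFHG replicate 3 was lower than its fellows, and the groups did not overlap (log2 fold change -0.40, adjusted p = 0.0198). Without that library the log2 fold change was -0.25 (adjusted p = 0.0395). When voom was run on recovered reads, the call was lost (adjusted p = 0.0630). Prim2, its large partner subunit, went the other way, with 2.49, 2.76, 2.32 and 2.33 FPKM in HFHG against 1.62, 2.06, 1.89 and 1.88 FPKM in LG. No libraries of the groups overlapped (log2 fold change 0.39, adjusted p = 0.00239). Pola2, the accessory subunit of polymerase alpha, measured 2.33, 2.28, 2.55 and 2.52 FPKM in HFHG and 3.31, 3.0, 3.09 and 3.09 FPKM in LG. It was lower in every HFHG library (log2 fold change -0.36, adjusted p = 6.87e-04). Pola1, the catalytic subunit, measured 0.715, 0.775, 0.513 and 0.481 FPKM in HFHG and 0.627, 0.839, 0.572 and 0.70 FPKM in LG, with overlap (log2 fold change -0.13, adjusted p = 0.506). Pold1, the catalytic subunit of polymerase delta, measured 1.15 to 1.34 FPKM in HFHG and 1.23 to 1.57 FPKM in LG (log2 fold change -0.15, adjusted p = 0.235), and was called lower with quantile normalization (adjusted p = 0.0383). Pole, that of polymerase epsilon, was below the filter at 0.297 to 0.369 FPKM in HFHG and 0.296 to 0.491 FPKM in LG (exact permutation p = 0.314).

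The sliding clamp fell, while 4 of the 5 subunits of its loader were not called. Over clamp and loader, 33.3% of the 6 tested genes fell, against 30.8% of all tested genes, and none rose. Pcna (chr2:132249162-132253314, minus strand), the clamp that holds polymerases on DNA and the most abundant member, measured 26.4, 26.8, 24.4 and 25.1 FPKM in HFHG and 38.0, 37.1, 35.4 and 37.8 FPKM in LG. The gap between the groups was wide compared with the spread within each (log2 fold change -0.53 ± 0.04, adjusted p = 9.47e-08, 1.44-fold higher in LG). GENCODE lists pseudogenes of Pcna and of Tyms, and how reads shared with such copies were assigned is not given, so these levels are uncertain to that extent. Of the 5 loader subunits, Rfc2 was called lower and Rfc1, Rfc3, Rfc4 and Rfc5 were not called. Rfc3 measured 3.91, 3.51, 3.96 and 2.74 FPKM in HFHG and 4.06, 3.56, 3.69 and 2.85 FPKM in LG, almost the same range (log2 fold change -0.01, adjusted p = 0.967). Rfc2 had a log2 fold change of -0.16 with overlapping groups (adjusted p = 0.0302), and the call was lost without HFHG replicate 2 or 3 or LG replicate 1 or 4 (adjusted p = 0.0512, 0.0959, 0.0601 and 0.0845), and also with no filter, with equal FPKM sums and with voom (adjusted p = 0.0568, 0.133 and 0.0540). Rfc1, the large subunit, measured 7.13 to 7.34 FPKM in HFHG and 6.73 to 7.03 FPKM in LG. It separated the groups by a narrow margin without being called (log2 fold change 0.07, adjusted p = 0.180), and was called higher with FPKM rescaled to the same sum (log2 fold change 0.13, adjusted p = 0.0301). Rfc4 and Rfc5 had log2 fold changes of -0.07 and 0.20 (adjusted p = 0.530 and 0.212).

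Of the genes that protect single strands and join the lagging strand, Fen1 and Lig1 fell (50% of the 4 tested, against 30.8% of all tested genes) and the RPA genes were not called. Lig1, which seals the nicks, measured 1.82, 1.27, 1.52 and 1.44 FPKM in HFHG and 2.35, 2.07, 2.0 and 1.752 FPKM in LG. It was called lower (log2 fold change -0.41, adjusted p = 0.00791) although HFHG replicate 1 lay above LG replicate 4. Fen1, which cuts the flaps before ligation, measured 3.26 to 4.01 FPKM in HFHG and 4.23 to 5.39 FPKM in LG without overlap (log2 fold change -0.39, adjusted p = 0.00133). The antisense gene Gm10143 covers 78.8% of the exon bases of Fen1, and without the strand setting of the counting their reads cannot be told apart. Rpa1, the large subunit of the single-strand binding complex, measured 14.6, 13.9, 13.8 and 14.0 FPKM in HFHG and 14.4, 14.1, 14.0 and 14.4 FPKM in LG. All libraries lay close together (log2 fold change -0.02 ± 0.04, adjusted p = 0.707). Rpa2, the middle subunit, measured 3.94 to 4.50 FPKM in HFHG and 3.03 to 4.65 FPKM in LG (log2 fold change 0.11, adjusted p = 0.419).

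Nucleotide supply split in 2 directions. Both subunits of ribonucleotide reductase, the enzyme that turns ribonucleotides into deoxynucleotides, rose, while the thymidylate synthase Tyms and the uracil glycosylase Ung fell, and Dut and Tk1 were not called. The shares of this role were 33.3% lower and 33.3% higher, near the 30.8% and 34.0% of all tested genes. Rrm2 (chr12:24708241-24714146, plus strand), the small subunit and the member with the largest increase, measured 14.0, 12.8, 13.9 and 14.1 FPKM in HFHG and 8.41, 9.11, 8.67 and 9.72 FPKM in LG. Every HFHG library lay above every LG library, and the mean was 1.53-fold higher (13.7 ± 0.601 against 8.98 ± 0.572 FPKM, SD, n = 4; log2 fold change 0.61 ± 0.05, adjusted p = 5.26e-07). Rrm1, the large subunit, measured 10.3, 11.9, 10.3 and 11.3 FPKM in HFHG and 7.76, 8.42, 8.37 and 8.04 FPKM in LG. It also rose without overlap (log2 fold change 0.42, adjusted p = 2.88e-05).

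Tyms, which makes thymidylate from deoxyuridylate, measured 1.54, 1.5, 1.64 and 1.54 FPKM in HFHG and 1.67, 1.74, 1.99 and 2.41 FPKM in LG. The HFHG libraries were lower and tighter (log2 fold change -0.30, adjusted p = 0.0308), but the call was lost without HFHG replicate 1, 2 or 4 or LG replicate 3 or 4 (adjusted p = 0.0591, 0.0667, 0.0572, 0.0646 and 0.0811), and also with no filter and with FPKM rescaled to the same sum (adjusted p = 0.0658 and 0.0616). Ung, which removes uracil from DNA, measured 0.496, 0.544, 0.574 and 0.517 FPKM in HFHG and 0.602, 0.863, 0.664 and 0.921 FPKM in LG. The groups did not overlap (log2 fold change -0.43, adjusted p = 0.0206), and the call was lost without LG replicate 2 or 4 (adjusted p = 0.0605 and 0.0619). Dut, which breaks down dUTP before it can be built into DNA, measured 9.43, 7.79, 9.63 and 7.82 FPKM in HFHG and 8.92, 7.81, 8.55 and 8.68 FPKM in LG. The HFHG values fell on both sides of the LG values (log2 fold change 0.02, adjusted p = 0.794). Tk1, the thymidine kinase of the salvage route, scattered from 0.827 to 1.36 FPKM in HFHG and from 0.949 to 1.36 FPKM in LG (log2 fold change -0.18, adjusted p = 0.328).

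**Figure D3:**
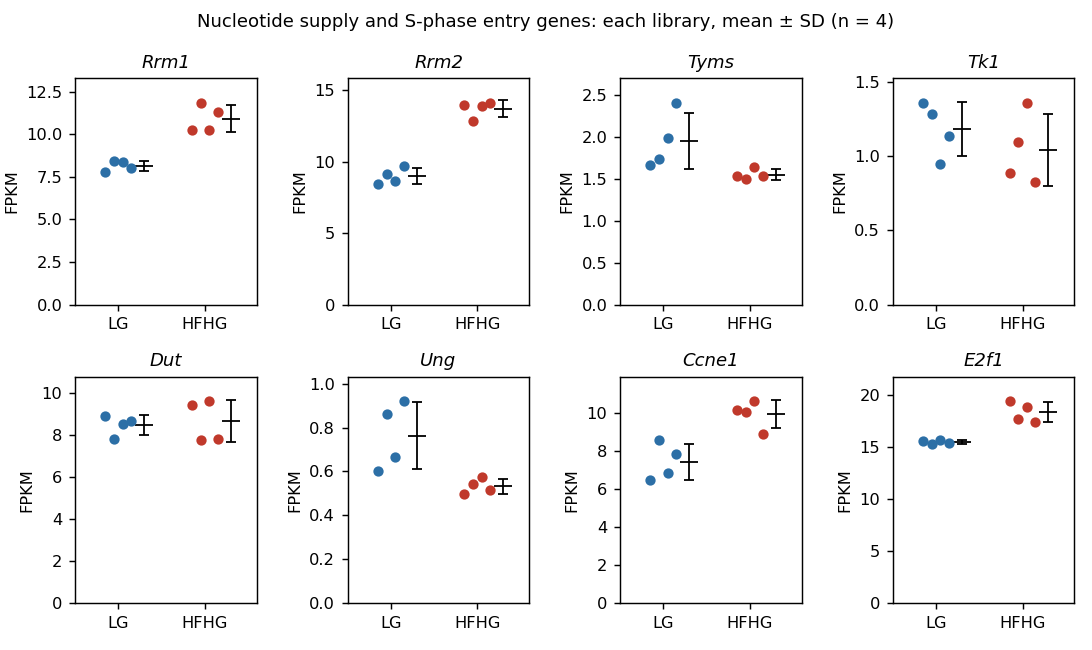
FPKM of 6 nucleotide supply genes and 2 S-phase entry genes in each library (vertical axes start at 0), with LG in blue, HFHG in red and the mean ± SD of 4 libraries in black. Rrm1, Rrm2, Ccne1 and E2f1 lie higher in all HFHG libraries, Tyms and Ung lie lower, and Tk1 and Dut overlap.

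Behind the fork, new DNA is packed by CAF-1, whose subunits Chaf1a and Chaf1b moved in opposite directions. Of the 4 tested genes of this role, 3 fell (75% against 30.8% of all tested genes) and 1 rose (25% against 34.0%). Chaf1b, the middle subunit, measured 1.17, 1.39, 1.71 and 1.17 FPKM in HFHG and 2.01, 1.99, 2.11 and 2.17 FPKM in LG. It was lower in every HFHG library (log2 fold change -0.59 ± 0.12, adjusted p = 6.62e-04). Chaf1a, the large subunit, measured 2.49, 2.71, 2.69 and 2.32 FPKM in HFHG and 1.84, 2.31, 2.23 and 1.95 FPKM in LG. The lowest HFHG library was just above the highest LG library (log2 fold change 0.28, adjusted p = 0.0156), and the call was lost with quantile normalization (adjusted p = 0.114). Exons of Ubxn6 lie opposite to 52.5% of the exon bases of Chaf1a, and Ubxn6 had a mean of 13.2 FPKM in HFHG and 17.4 FPKM in LG. Uhrf1, which brings the maintenance DNA methyltransferase to new DNA, fell from 1.39 ± 0.152 to 0.912 ± 0.0822 FPKM (SD, n = 4; log2 fold change -0.56, adjusted p = 6.33e-04). Slbp, which binds the stem loop of histone mRNAs, measured 9.90, 9.15, 9.81 and 10.4 FPKM in HFHG and 10.6, 11.2, 11.6 and 10.9 FPKM in LG. The groups were next to each other without overlap (log2 fold change -0.17, adjusted p = 0.00765), and the call was lost with FPKM rescaled to the same sum (adjusted p = 0.0727).

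Of the 3 genes of S-phase entry, E2f1 and Ccne1 rose (66.7% against 34.0% of all tested genes) and none fell. E2f1, the transcription factor that drives many S-phase genes, measured 19.5, 17.7, 18.9 and 17.5 FPKM in HFHG and 15.6, 15.3, 15.7 and 15.4 FPKM in LG. Its LG values were almost equal, and all HFHG values were higher (log2 fold change 0.24 ± 0.04, adjusted p = 2.10e-04). Ccne1, which encodes cyclin E1, measured 10.2, 10.1, 10.6 and 8.90 FPKM in HFHG and 6.48, 8.58, 6.85 and 7.83 FPKM in LG. The groups did not overlap (log2 fold change 0.42 ± 0.08, adjusted p = 7.60e-04). Ccne2, which encodes cyclin E2, measured 0.759, 0.592, 0.582 and 0.591 FPKM in HFHG and 0.648, 0.763, 0.546 and 0.299 FPKM in LG. It had the widest spread of the tested members in LG and was not called (log2 fold change 0.19 ± 0.21, adjusted p = 0.457), and 17.4% of its exon bases lie opposite to exons of Ints8.

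Because partner genes moved apart, ratios were taken within each library, where the depth of the library cancels out. These pairs were chosen after the values were seen, and the ratios are given as a description. The ratio of Mcm2 to Mcm4 was 0.777 to 0.925 in HFHG and 1.79 to 2.06 in LG. Between subunits of primase, Prim2 to Prim1 was 1.70 to 2.66 in HFHG and 0.955 to 1.32 in LG. Between subunits of CAF-1, Chaf1a to Chaf1b was 1.57 to 2.12 in HFHG and 0.899 to 1.16 in LG. In all of these the groups stood apart, and the order of the partners turned round for Mcm2 and Mcm4. Rrm2 to Tyms was 8.47 to 9.18 in HFHG and 4.03 to 5.23 in LG, and Rrm2 to Mcm2 was 3.97 to 4.53 in HFHG and 1.40 to 1.54 in LG. In the pairs other than Mcm2 to Mcm4, the groups had to stand apart. Each numerator there was higher and each denominator lower in HFHG without overlap. Rrm1 and Rrm2, the subunits of 1 enzyme, both rose, and their ratio overlapped between the groups. Its mean was 0.799 ± 0.0890 in HFHG and 0.910 ± 0.0582 in LG (SD, n = 4).

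**Figure D4:**
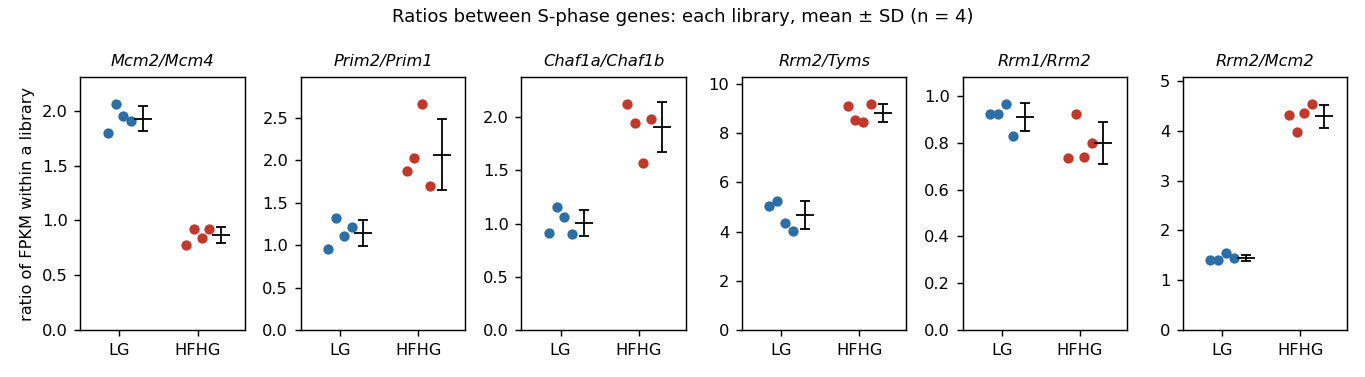
Ratio of the FPKM of gene pairs within each library (vertical axes start at 0), with LG in blue, HFHG in red and the mean ± SD of 4 libraries in black. The groups stand apart in all pairs shown except Rrm1/Rrm2, and Rrm2/Mcm2 shows 3.97 to 4.53 in HFHG against 1.40 to 1.54 in LG.

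Next, the wider pathway was looked at with lists of other genes. Of 44 tested genes in a list of other replication genes, 16 fell (36.4%, against 30.8% of all tested genes) and 6 rose (13.6%, against 34.0%), with a median log2 fold change of -0.09. Hells, which is among the 16, passed the filter only through LG, so it had to differ to be tested. It measured at most 0.479 FPKM in HFHG and 0.564 to 0.731 FPKM in LG. The largest changes were decreases of Dbf4, the activator of the CDC7 kinase that fires origins (log2 fold change -0.69, adjusted p = 4.67e-06), of Cks1b, a small partner of the cyclin-dependent kinases (-0.60), and of Pole4, an accessory subunit of polymerase epsilon (-0.57). Of 35 tested other genes of nucleotide synthesis, 22 fell (62.9%, against 30.8% of all tested genes) and 8 rose (22.9%, against 34.0%), with a median log2 fold change of -0.22. Shmt2 and Mthfd2, enzymes of the mitochondrial one-carbon pathway, led the list: Shmt2 fell from 75.5 ± 1.29 to 31.2 ± 0.613 FPKM (SD, n = 4; log2 fold change -1.27, adjusted p = 1.11e-12) and Mthfd2 from 49.4 ± 0.523 to 22.8 ± 1.27 FPKM (log2 fold change -1.11). Nme2, a nucleoside diphosphate kinase, followed at -0.85. 

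Of 36 tested mitotic genes, 10 rose (27.8%, below the 34.0% of all tested genes) and 2 fell (Ccnb1 and Foxm1, 5.56% against 30.8%), with a median log2 fold change of 0.12. Quantile normalization gave 6 higher and 7 lower. The largest changes were increases of the spindle protein gene Ckap2 (log2 fold change 1.51, adjusted p = 5.29e-09), of the kinetochore gene Spc25 (0.68) and of the checkpoint kinase gene Bub1b (0.54), which passed the filter only through HFHG, where it was high. No test of the difference between this list and the members was made. Among the inhibitors and regulators of G1, 9 of 16 rose (56.2%, against 34.0% of all tested genes) and 5 fell (Myc, Cdk4, Trp53, Cdkn2a and Ccnd1, 31.2% against 30.8%). Cdkn1a, which encodes the CDK inhibitor p21, rose from 273 ± 13.1 to 507 ± 7.98 FPKM (SD, n = 4; log2 fold change 0.89, adjusted p = 8.66e-11). Cdkn2c, another CDK inhibitor, rose by 0.82 on the log2 scale, and Myc fell by 1.04. Of 14 tested genes of the E2F and RB families and their partners, Rbl2, E2f6, Rb1, Tfdp2 and Lin37 rose (35.7%, near the 34.0% of all tested genes) and Rbbp4, E2f4 and Tfdp1 fell (21.4%, against 30.8%), and the leading values were 0.53 for Rbl2, 0.52 for E2f6 and 0.45 for Rb1.

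**Figure D5:**
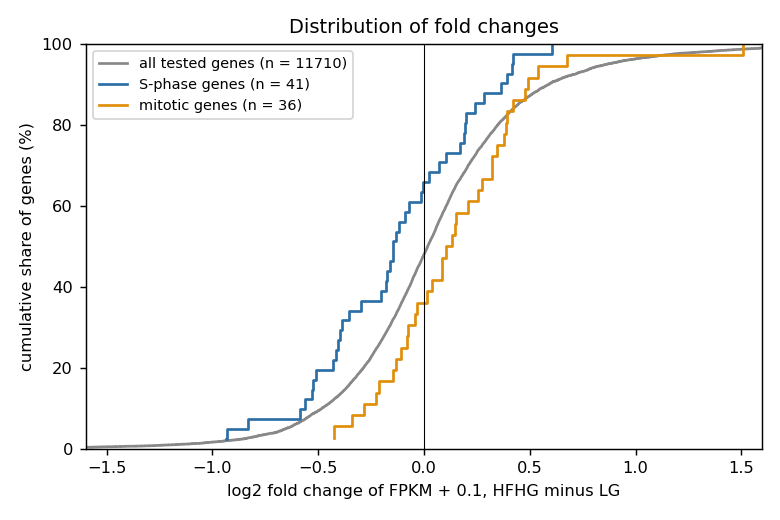
Cumulative share of genes (vertical axis, %) against the log2 fold change, HFHG minus LG, for all 11710 tested genes (grey), the 41 tested S-phase genes (blue) and 36 tested mitotic genes (orange). The S-phase curve lies to the left of the grey curve through most of the range but not at the lowest fold changes, with medians of -0.15 and 0.02. The mitotic curve lies to the right of the grey curve through most of the range, with a median of 0.12.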

How the data were processed

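The members and lists were chosen with earlier results of these data known. The authors deposited FPKM values for 8 libraries, not pooled, made with a stranded mRNA kit and a NovaSeq sequencer. The submitters' processing notes name HISAT2 2.1.0 and mm10. The counting program, its annotation and strand setting are not given in the sources used here. Groups came from the sample labels, and 0 columns of samples were left unused.

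Genes with at least 0.5 FPKM in at least 4 libraries (11710 genes) were tested with limma 3.58.1 in R 4.3.3 (lmFit, eBayes with a trend) on log2(FPKM + 0.1), HFHG minus LG, with Benjamini-Hochberg adjustment over all of them. Fold changes on this scale understate the change of low genes. Members below the filter got an exact two-sided permutation test over 70 arrangements. P-values measure the spread between these libraries. Whole reads were recovered from the FPKM for 100% of genes (within 0.0001 reads), searching library totals and gene lengths. Scripts were tested on simulated data. The main fit did not pair the libraries by replicate number, since no pairing by number was seen.

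In each role, values per library were given for the tested members with the largest and smallest absolute log2 fold change and the member with the highest mean, and in each list the 3 leading genes were named. Other members with values per library, and other genes named, were chosen after their values were seen. Exon overlaps came from GENCODE M21 (GRCm38), and 15 members share exon bases with a gene on the opposite strand. Shares of exon bases are taken over all GENCODE exons of a gene, which need not be the bases that were counted. For Chaf1a, 4648 exon bases are shared, while the gene length recovered from the FPKM was 3308 bases. Promoters came from RefSeq. Alternatives were other pseudocounts, filters and scalings, a replicate block, robust eBayes, voom and leaving out each library.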

Additional observations from a re-analysis of the deposited data

Results flagged for a closer look

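In 2 of 90 groups of 4 values (45 members in both groups), 1 library lay far from the other three by Dixon's criterion, where chance alone gives about 1 in 20 groups, or 4.5. Prim1 in HFHG replicate 3 measured 0.870 FPKM, while the other HFHG libraries lay between 1.33 and 1.37 FPKM, and without that library the log2 fold change was -0.25. Ccne2 in HFHG replicate 1 measured 0.759 FPKM, while the other HFHG libraries lay between 0.582 and 0.592 FPKM, and Ccne2 was not called with or without it.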

How the results depend on the processing

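Over 18 alternatives, 16 of the 23 called members (11 lower, 5 higher) were tested in every alternative and called in the same direction in each. Orc1 was called in the 13 alternatives that tested it and was below the filter in 5, and Chaf1a, Prim1, Rfc2, Slbp, Tyms and Ung lost the call in at least 1. The members' counts were 17 lower and 6 higher with the replicate block, 15 and 6 with voom, 20 and 5 with quantile normalization, and 14 and 10 with FPKM rescaled to the same sum. Leaving out 1 library gave 13 to 17 lower and 6 to 9 higher, the extremes 13 and 9 coming without LG replicate 4. These counts stand without the shares of all tested genes called in the same settings. The median log2 fold change of the members was -0.10 with a pseudocount of 1 and -0.089 with the same sum. Over all tested genes it was 0.014 and 0.075, and 0.017 in the main fit. Changes over 2-fold numbered 3 with quantile normalization (Cdt1, Mcm2 and Orc1), and leaving out 1 library gave 0 to 1, the 1 being Cdt1 without HFHG replicate 2. Mitotic genes called lower numbered 1 with no filter, 4 with median-ratio scaling and 7 with quantile normalization (6 higher), and 1 to 3 with 1 library left out. Genes of the E2F and RB list called lower numbered 1 with the same sum and 5 with quantile normalization. Among members without a call, the sign turned for Rfc3 (0.051 with the same sum, -0.10 to 0.11 with 1 library left out), Rpa1 (0.043 with the same sum), Rpa2 (-0.017 to 0.18 with 1 library left out), Ccne2 (-0.0025 with quantile normalization, -0.038 to 0.33 with 1 library left out) and Dut (-0.012 with median-ratio scaling, -0.028 to 0.073 with 1 library left out). The cause was not tested. Same-numbered libraries deviated with correlations of -0.07 to -0.0056, and 0 of the 4 HFHG libraries correlated best with its own number, so no pairing by number was seen. This check cannot show whether same-numbered cultures shared a mouse or a day. Depth limits Orc1, Cdc6, Gins1, Mcm10, Ccne2, Prim1, Tk1 and Ung most, which had fewer than 100 reads in every library.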
